A study of Rattus norvegicus with 15 samples.

Results

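Transcript levels of 8 rat genes were followed in cultured cells labelled as brain microvascular endothelial cells (BMECs) after x-ray exposure. They comprise the small heat shock protein genes Hspb1, Hspb6, Hspb8 and Cryab, the co-chaperone gene Bag3, the autophagy receptor gene Sqstm1, and the transcription factor genes Hsf1 and Hsf2. The genes were selected by name, with results of these same libraries known, from 37367 genes in the table, and no threshold was used. All transcripts named for a gene, and unnamed transcripts of a locus with only that name, were added up, which took 32 of 85322 transcript rows. All 8 genes were above the low-level limit of a mean of 0.5 FPKM (fragments per kilobase of transcript, scaled to the mapped fragments of the library), as were 17895 genes in all.

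The 15 libraries formed 5 groups of 3. Control cells were not irradiated but were otherwise handled like the exposed cells, and their labels give 12 h of culture. The exposed groups received x-rays at 5 Gy or at 20 Gy and were collected after 12 h or 24 h. The cells were primary cultures from the cerebral cortex of Sprague-Dawley littermates (spelled Spraque-Dawley in the labels) aged 2 to 3 weeks and of both sexes, enriched for BMECs by differential adhesion, and no group carried a genetic change. No unexposed 24 h culture was analysed here, so time after exposure and time in culture cannot be told apart. Replicates are called biological, but the methods name fewer rats than there were libraries and the labels do not tie libraries to rats, so p-values may cover only technical spread.

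Libraries held 5.44 to 7.49 gigabases of aligned sequence, as read from the steps between low FPKM values, and replicates of a group correlated at r = 0.963 to 0.975 across the genes tested. Of 13 endothelial marker genes in the table, 10 stayed under 1 FPKM in every library, among them Cdh5, Cldn5, Kdr, Tek, Tie1 and Vwf. The summed endothelial list read 25.4 to 33.1 FPKM in control libraries. It was mostly Slc2a1, with means of 23.6, 19.3 and 17.3 FPKM in control libraries and at 24 h after 5 Gy and 20 Gy. In the same order, Flt1 had means of 2.84, 4.1 and 3.14 FPKM, and Ocln 1.89, 1.75 and 1.09 FPKM. A list of 9 fibroblast markers summed to 2271 to 2572 FPKM in control libraries. At 24 h it summed to 865 to 940.2 FPKM after 5 Gy and 809.9 to 961 FPKM after 20 Gy. Of the 8 tested, 5 passed the call as lower at each dose, against 20.8% and 23.3% of all genes. That fall lay mainly in collagens, with mean Col1a1 at 516, 27.0 and 31.4 FPKM in control, 5 Gy and 20 Gy libraries at 24 h, and mean Col3a1 at 535, 26.9 and 36.6 FPKM. Fbln1, at 502, 581 and 567 FPKM, and Pdgfra, at 52.1, 60.8 and 51.6 FPKM, did not follow it. Summed pericyte and smooth muscle markers read 93.0 to 101 FPKM in control libraries, 48.4 to 60.3 FPKM 24 h after 5 Gy and 41.7 to 70.5 FPKM 24 h after 20 Gy. Of these 12 markers, 5 stayed under 1 FPKM in every library. At 24 h after 20 Gy, 2 were called higher and 2 lower. Astrocyte markers read 518 to 765, 375 to 437 and 324 to 398 FPKM in the same order, and neuron markers 61.0 to 74.8, 23.9 to 32.4 and 22.4 to 40.2 FPKM. The astrocyte sum was mostly Gja1, with means of 623, 380 and 333 FPKM. Gfap and Aqp4 stayed under 1 FPKM, and mean Aldh1l1 went up, at 9.52, 20.8 and 23.7 FPKM. The neuron sum was mostly Stmn2, with means of 58.7, 18.6 and 20.4 FPKM. Rbfox3, Snap25 and Map2 stayed under 1 FPKM, and mean Syt1 went up, at 6.68, 9.84 and 9.18 FPKM. Cdh5, Cldn5, Tie1 and Vwf had means near 0 in cells labelled as BMECs, while Slc2a1, Flt1 and Ocln did not. The part of cell type in the 24 h changes described here was not tested. In bulk RNA, fewer cells of a type and less RNA per cell cannot be told apart.

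Small heat shock proteins are chaperones without ATPase activity that hold unfolding proteins in a soluble state. BAG3 joins them, most closely HSPB8, to HSP70, and this complex passes damaged clients to autophagy, in which p62, the product of Sqstm1, links ubiquitinated cargo to LC3 on the autophagosome. HSF1 is the main activator of heat shock genes in stressed cells and HSF2 is a related factor that can form trimers with it. Both bind heat shock elements, arrays of the 5-base unit nGAAn in alternating orientation.

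The promoter stretches that hold pairs of such units are shown first, because they are a sequence feature that several of the genes share. The selection did not use promoter sequence, but it took heat shock genes by name. HSF1 activates such genes and binds these elements, so the shares given below are not independent of the choice. RefSeq promoter windows on GRCr8, from 250 bases before to 50 bases after the annotated start, were found for 6 of the 8 genes, and Cryab and Hsf1 were not matched. Capitals mark a head-to-head pair (GAANNTTC) or a tail-to-tail pair (TTCNNGAA), each of which reads the same pattern on both strands.
Hspb1 (chr12:26432388-26432445, minus strand): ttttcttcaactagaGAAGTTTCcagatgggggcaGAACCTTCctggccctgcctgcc
Bag3 (chr1:192533313-192533350, plus strand): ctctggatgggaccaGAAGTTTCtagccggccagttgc
Hspb6 (chr1:94934122-94934245, plus strand): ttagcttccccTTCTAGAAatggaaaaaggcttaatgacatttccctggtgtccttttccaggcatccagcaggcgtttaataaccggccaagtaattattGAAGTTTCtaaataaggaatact
Hspb8 (chr12:45837270-45837307, plus strand): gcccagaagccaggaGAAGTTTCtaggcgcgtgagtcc

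A head-to-head pair was present in 4 of the 6 windows, against 8.59% of all 33469 windows. A tail-to-tail pair was present in 1 of the 6, that of Hspb6, against 8.77% of all windows. The head-to-head pair had the same letters, GAAGTTTC, in Hspb1, Bag3, Hspb6 and Hspb8. These 8 letters, picked after the windows were read and searched on both strands, occurred in 1.39% of all windows. An array of 3 units (GAANNTTCNNGAA or TTCNNGAANNTTC) occurred in none of the 6 windows and in 0.798% of all windows. Counted from the annotated start, the shared letters began at base -129 in Hspb1, -132 in Bag3, -149 in Hspb6 and -23 in Hspb8. No pair was found in the windows of Sqstm1 and Hsf2. The levels given below went in different directions among the 4 genes with the shared letters. Whether a factor binds these letters or acts through them was not tested.

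**Figure D1:**
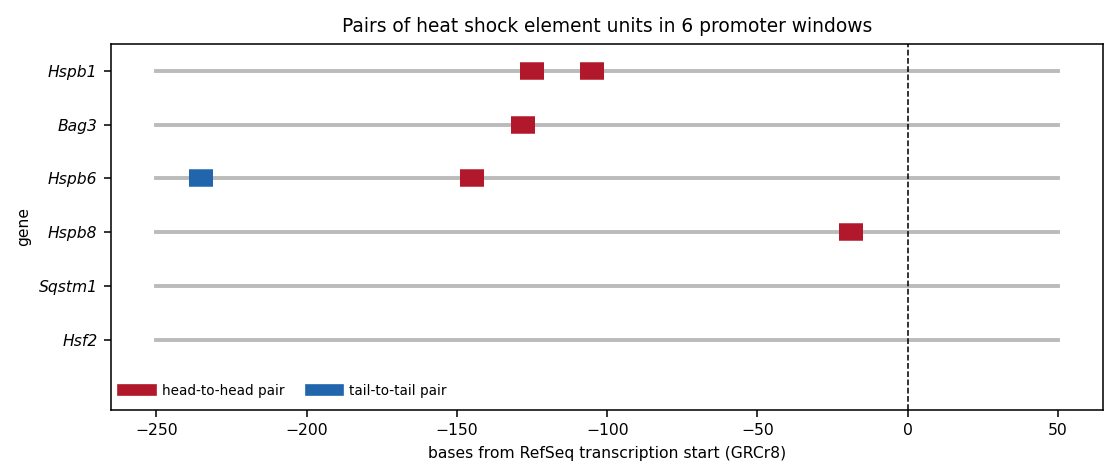
Position of head-to-head (red) and tail-to-tail (blue) pairs of heat shock element units in the 6 promoter windows, in bases from the RefSeq start (dashed line). The pairs of Hspb1, Bag3 and Hspb6 with the shared letters begin at base -129, -132 and -149, and that of Hspb8 begins at base -23.

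In control libraries, Sqstm1 was the highest of the 8 genes at 283 ± 7.44 FPKM (SD, n = 3), a scale that corrects for transcript length, followed by Hspb8, Hspb1, Hspb6, Bag3, Cryab, Hsf1 and Hsf2. The highest mean was 29.0 times the lowest. At 24 h after 20 Gy, Hspb1 and Bag3 had moved above Sqstm1, Hspb6 had become the lowest, and the highest mean was 78.0 times the lowest. Against the control, 3 genes (Hspb1, Bag3 and Hsf2) were called higher and 1 (Hspb6) lower at 24 h after both doses. Hspb8, Cryab, Sqstm1 and Hsf1 did not pass the call. These 4 of 8 stand beside 41.3% of all genes called at 24 h after 5 Gy and 40.3% after 20 Gy.

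**Figure D2:**
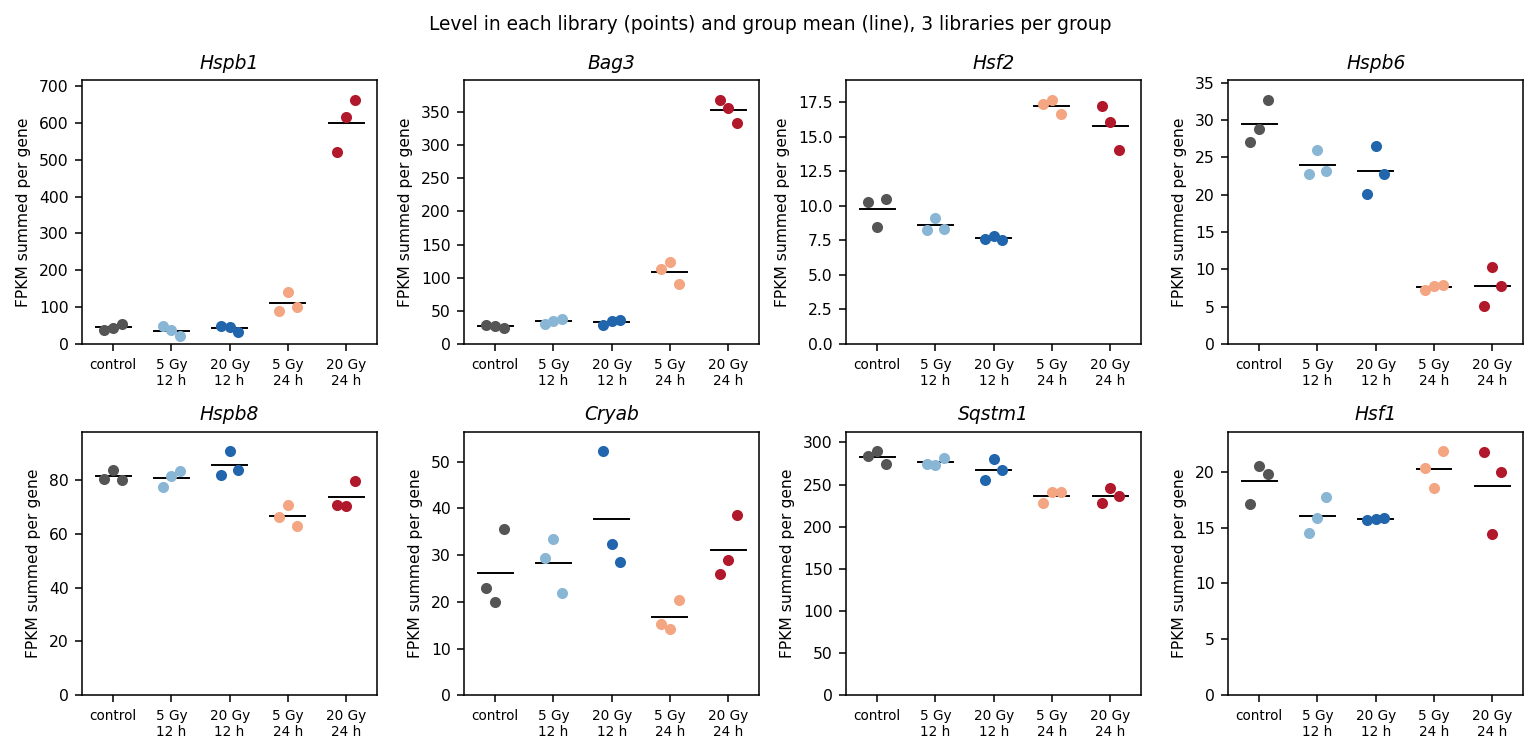
FPKM summed per gene (vertical axis, linear from 0) in each of 3 libraries per group (points) with the group mean (line), 1 panel per gene. Hspb1 and Bag3 are near their control level at 12 h and highest 24 h after 20 Gy, and Hspb6 is lowest at 24 h after both doses.

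Hspb1 encodes HSP27, the most widely expressed small heat shock protein, which also binds actin filaments. The gene lies at chr12:23839399-23841049 on the minus strand of Rnor_6.0, the build of the files. Its level was 39.1, 43.2 and 55.3 FPKM in the 3 control libraries. At 12 h it was 47.6, 38.4 and 21.1 FPKM after 5 Gy and 48.7, 46.3 and 32.4 FPKM after 20 Gy. Both 12 h groups overlapped the control. At 24 h it was 90.7, 139.9 and 100.2 FPKM after 5 Gy, and 521, 617 and 663 FPKM after 20 Gy. Each 24 h group lay above every control and 12 h library, and the 20 Gy libraries lay above all others. The mean was 2.40 times the control at 24 h after 5 Gy and 13.1 times the control for 20 Gy at the same time. On the log2(FPKM + 1) scale, used for all log2 changes given here and smaller than the true change for low genes, these differences were 1.24 ± 0.265 and 3.69 ± 0.265 (SE).

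The rise of Hspb1 was not spread evenly over its transcripts. An annotated transcript of 3 exons and 879 bases made up 99.2% ± 0.276 (SD, n = 3) of the gene's FPKM in control cells. A transcript assembled by the authors from the reads has 1 exon fewer and is 661 bases longer, as a transcript that kept 1 intron would be, although exon boundaries were not analysed here. It read 0.356, 0.419 and 0.257 FPKM in control libraries and no more than 0.347 FPKM in any 12 h library. At 24 h it had reached 9.82, 13.5 and 9.29 FPKM for 5 Gy and 88.4, 119 and 103 FPKM for 20 Gy. Its share of the gene at 24 h was 9.92% ± 0.814 for 5 Gy and 17.3% ± 1.92 for 20 Gy, and the shares of these groups overlapped neither each other nor the control. The annotated transcript was also higher, at 99.4 ± 23.9 FPKM and 497 ± 63.9 FPKM (SD, n = 3).

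Bag3, at chr1:199941161-199965191 on the plus strand, is represented by a single annotated transcript of 4 exons. It read 29.0, 27.6 and 24.4 FPKM in control libraries. At 12 h it read 30.8, 35.0 and 37.3 FPKM after 5 Gy and 28.3, 35.1 and 36.0 FPKM after 20 Gy. The 5 Gy libraries at 12 h were all above the control, by 0.33 ± 0.126 on the log2 scale, and those of 20 Gy overlapped it. The 24 h libraries read 113, 124 and 89.7 FPKM after 5 Gy and 368, 356 and 334 FPKM after 20 Gy. These groups overlapped no other group, and their means were 403% and 1305% of the control. The log2 differences from the control were 1.96 and 3.66, each with an SE of 0.126.

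Hsf2, at chr20:38935820-38963309 on the plus strand, was the lowest of the 8 genes in control cells, at 10.3, 8.47 and 10.5 FPKM. At 12 h it read 8.25, 9.14 and 8.36 FPKM after 5 Gy and 7.59, 7.84 and 7.51 FPKM after 20 Gy. The 20 Gy libraries at 12 h lay just below every control library. After 24 h it read 17.4, 17.7 and 16.6 FPKM after 5 Gy and 17.2, 16.1 and 14.0 FPKM after 20 Gy. Both 24 h groups lay above all control and 12 h libraries and overlapped each other. The log2 differences from the control were 0.77 and 0.64, each with an SE of 0.0930.

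The 2 transcripts of Hsf2 did not move alike. An assembled transcript of 13 exons, 54 bases longer than the annotated one of 12 exons, made up 72.2% ± 6.19 (SD, n = 3) of the gene's FPKM in control cells. It made up 42.2% ± 4.73 and 48.6% ± 1.75 at 12 h after 5 Gy and 20 Gy, and 46.4% ± 3.39 and 43.9% ± 6.03 at 24 h. The control libraries lay above every exposed library in this share. The 12-exon transcript read 2.52, 2.03 and 3.67 FPKM in control libraries and 4.37, 5.71 and 4.83 FPKM at 12 h after 5 Gy, so it was higher at 12 h while the gene sum was not. How reads are divided between such similar transcripts is estimated by the assembler and has its own error, which was not analysed here.

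**Figure D3:**
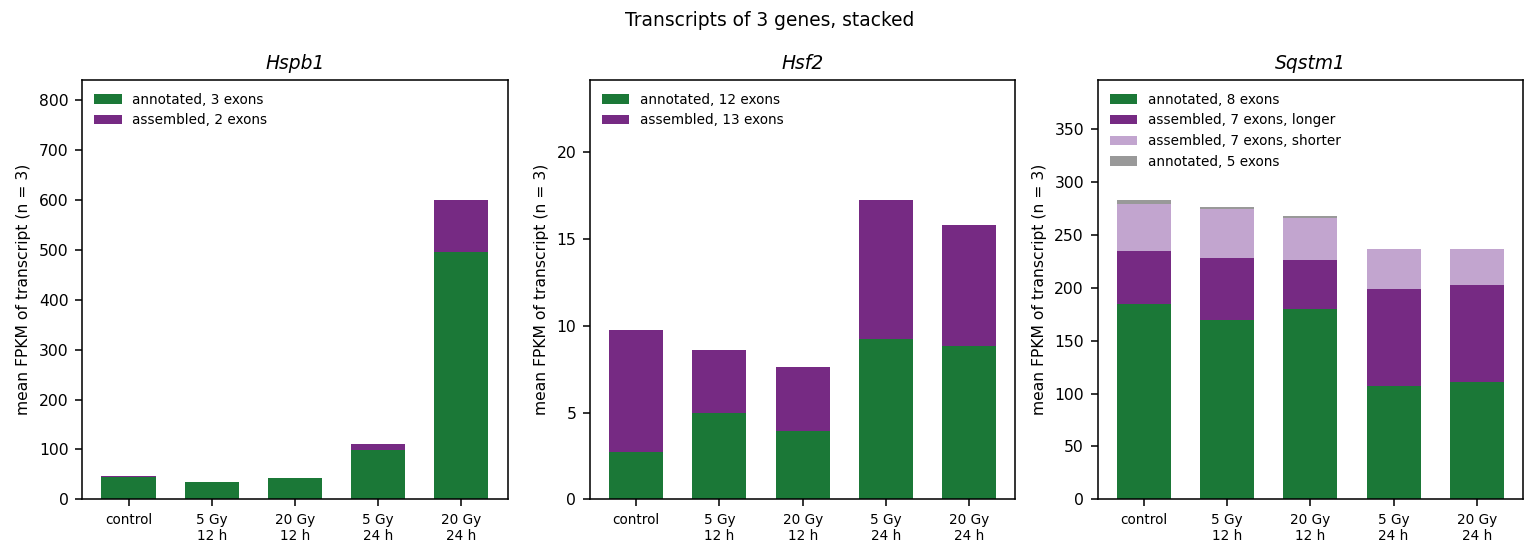
Mean FPKM of each transcript (stacked, n = 3 libraries per group) of Hspb1, Hsf2 and Sqstm1. The assembled 2-exon transcript of Hspb1 takes a clear part of the bar only at 24 h, the 13-exon transcript of Hsf2 makes up more of the control bar than of the others, and the longer 7-exon transcript of Sqstm1 takes a larger part of the bars at 24 h.

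Hspb6, which encodes the small heat shock protein HSP20 known from muscle, went the other way from Hspb1. It lies at chr1:89007215-89010256 on the plus strand. It read 27.0, 28.8 and 32.7 FPKM in control libraries. At 12 h it read 22.8, 25.9 and 23.2 FPKM after 5 Gy and 20.1, 26.5 and 22.7 FPKM after 20 Gy. Both 12 h groups lay below every control library, by 0.29 ± 0.180 and 0.34 ± 0.180 on the log2 scale. At 24 h it read 7.16, 7.82 and 7.88 FPKM after 5 Gy and 5.03, 10.3 and 7.74 FPKM after 20 Gy. These groups overlapped each other and lay below all control and 12 h libraries, with means at 25.8% and 26.1% of the control. The log2 differences from the control were -1.82 and -1.85, each with an SE of 0.180. The locus overlaps Proser3 on the other strand and a further gene on its own strand, which together stayed between 0.900 and 4.50 FPKM, and the strand setting of the counting is not given in the sources used here.

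Hspb8, the small heat shock protein that binds BAG3 most closely, stayed near its control level. It lies at chr12:45905371-45920013 on the plus strand and has a single annotated transcript. It read 80.2, 83.8 and 80.0 FPKM in control libraries, 77.4 to 83.1 FPKM at 12 h after 5 Gy and 81.7 to 90.6 FPKM at 12 h after 20 Gy. After 24 h it read 66.3, 70.6 and 62.8 FPKM after 5 Gy and 70.7, 70.3 and 79.6 FPKM after 20 Gy. Both 24 h groups lay below every control library. The log2 differences of -0.29 and -0.15 (SE 0.0706 each) were, however, smaller than the 1.5-fold limit of the call. Under the alternatives the first came as near to no change as -0.04, and the second was 0.08 with quantile normalization.

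Cryab encodes alpha B-crystallin, a small heat shock protein abundant in lens and muscle, and varied widely between replicates. It lies at chr8:55176906-55182545 on the plus strand and overlaps the related gene Hspb2 and an unnamed locus on the other strand, which together read 2.12 to 11.4 FPKM. Cryab read 22.9, 19.9 and 35.7 FPKM in control libraries. At 12 h it read 29.4, 33.3 and 21.9 FPKM after 5 Gy and 52.2, 32.4 and 28.4 FPKM after 20 Gy. The 24 h libraries read 15.3, 14.3 and 20.4 FPKM after 5 Gy and 25.9, 28.9 and 38.6 FPKM after 20 Gy. No exposed group passed the call against the control. The 24 h group after 5 Gy was called lower with quantile normalization (-0.68), without control replicate 2 (-0.76) and without its own replicate 3 (-0.74). Only the 24 h group after 5 Gy lay below its 12 h group. The annotated transcript held between 9.25% and 100% of the gene's FPKM across libraries, so only the sum over its 5 transcripts is compared here.

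Sqstm1, at chr10:35704730-35716294 on the minus strand, read 284, 290 and 275 FPKM in control libraries. At 12 h it read 275, 273 and 282 FPKM after 5 Gy and 256, 281 and 267 FPKM after 20 Gy. At 24 h it read 229, 241 and 241 FPKM after 5 Gy and 228, 246 and 236 FPKM after 20 Gy. Both 24 h groups lay below all other libraries, with a log2 difference from the control of -0.26 ± 0.0598 at each dose, smaller than the limit of the call. After 5 Gy the difference was 0.07 with quantile normalization, so its direction was not settled. RefSeq also lists a Sqstm1 pseudogene, and a locus on the other strand, Mrnip, overlaps the gene, so some reads may be shared.

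Under this small change of the sum, the estimated levels of the Sqstm1 transcripts went in opposite directions. As for Hsf2, the division of reads between such similar transcripts is estimated by the assembler, with an error that was not analysed here. The annotated transcript of 8 exons read 174, 198 and 183 FPKM in control libraries. The 24 h libraries read 96.4, 112 and 113 FPKM after 5 Gy and 97.9, 128 and 108 FPKM after 20 Gy, below every control library. An assembled transcript of 7 exons, 81 bases shorter, read 61.2, 42.3 and 45.0 FPKM in control libraries. After 24 h it read 105, 83.1 and 85.6 FPKM after 5 Gy and 106, 81.4 and 87.6 FPKM after 20 Gy, above every control library. Its share of the gene was 17.5% ± 3.60 in control cells, and at 24 h 38.6% ± 6.30 for 5 Gy and 38.9% ± 6.84 for 20 Gy (SD, n = 3). The shares at 12 h, 21.0% ± 5.52 after 5 Gy and 17.1% ± 3.81 after 20 Gy, overlapped the control.

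Hsf1, at chr7:117538523-117565478 on the plus strand, was not called in any comparison. It read 17.1, 20.5 and 19.8 FPKM in control libraries. At 12 h it read 14.5, 15.9 and 17.8 FPKM after 5 Gy, which overlapped the control. After 20 Gy it read 15.7, 15.8 and 15.8 FPKM at 12 h, which lay just below. At 24 h it read 20.3, 18.6 and 21.8 FPKM after 5 Gy and 21.7, 14.4 and 20.0 FPKM after 20 Gy, and both groups overlapped the control. The 5 Gy libraries at 24 h all lay above those at 12 h. Its sum is divided over 13 transcripts, 12 of them assembled, and the locus overlaps Dgat1 on the other strand, at 0.0519 to 2.72 FPKM. The annotated transcript alone had a mean of 4.57 FPKM in control cells. Its means were 6.28 and 5.79 FPKM at 12 h after 5 Gy and 20 Gy, and 7.67 and 7.43 FPKM at 24 h. The direction for Hsf1 therefore depends on the transcripts summed.

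The number of the 8 genes that passed the call (limma, adjusted p under 0.05 over all genes and a fold change of at least 1.5) is a description where a comparison may have been known when the genes were selected, which holds for every comparison with the control and of 24 h with 12 h. At 12 h none passed, with 9.94% of all genes called after 5 Gy and 8.54% after 20 Gy. The libraries did not overlap the control for 2 of the 8 genes after 5 Gy and 3 after 20 Gy, against 38.5% and 36.8% of all genes. At 24 h after 5 Gy, 4 of the 8 passed, against 41.3% of all genes. The 3 higher ones stand beside 20.5% of all genes called higher, and the 1 lower beside 20.8% called lower. At 24 h after 20 Gy the same 4 genes passed, against 40.3% of all genes, with 17% called higher and 23.3% called lower. At each dose the libraries of 6 genes did not overlap the control, against 67.4% of all genes after 5 Gy and 62.7% after 20 Gy. The exposed groups share the control libraries. The median log2 change of all genes at 24 h was -0.05 for 5 Gy and -0.14 for 20 Gy, and that of the 8 genes was -0.09 and 0.11.

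**Figure D4:**
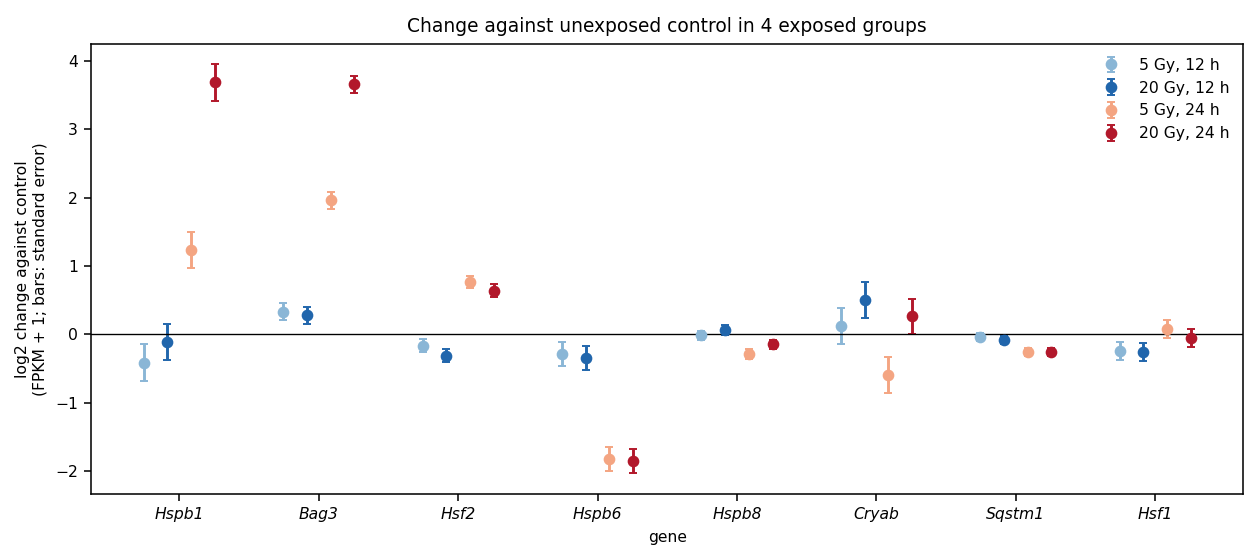
Log2 change against the control (vertical axis, FPKM + 1) of the 8 genes in the 4 exposed groups, with the standard error of the limma fit (n = 3 libraries per group). Hspb1 and Bag3 reach 3.69 and 3.66 at 24 h after 20 Gy, and Hspb6 lies at -1.82 and -1.85 at 24 h after the 2 doses.

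From 12 h to 24 h after 5 Gy, 5 of the 8 genes passed, against 36.4% of all genes. Bag3, Hspb1 and Hsf2 were higher at 24 h by 1.63, 1.65 and 0.93, and Hspb6 and Cryab differed by -1.53 and -0.72. The call for Cryab was lost without replicate 1 or 2 of either group, and its difference was -0.22 with own-name rows or the highest transcript. After 20 Gy, 4 of the 8 passed, against 36.3% of all genes. Hspb1, Bag3 and Hsf2 were higher at 24 h by 3.80, 3.38 and 0.95, and Hspb6 differed by -1.51.

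The selection is not recorded as having used the difference between doses, and this difference was tested. It is, however, the difference between comparisons with the control that were known. Its p-values are therefore open to the selection and describe these libraries. At 12 h none of the 8 genes passed, and 0.123% of all genes did. Of the 8, the unadjusted limma p was under 0.05 for none. The libraries of the 2 doses did not overlap for 1 of the 8, Hsf2, against 2294 of all 17895 genes. The 95% interval of the log2 difference was -0.28 to 0.87 for Hspb1 and -0.33 to 0.22 for Bag3. At 24 h, Hspb1 and Bag3 passed, against 2.42% of all genes. Hspb1 was higher after 20 Gy than after 5 Gy by 2.45 (95% interval 1.88 to 3.03, adjusted p = 0.0003084, limma, 3 of 3 libraries above all of the other dose). Bag3 was higher by 1.70 (95% interval 1.42 to 1.97, adjusted p = 1.761e-05, limma, again 3 of 3 libraries). An exact two-sided permutation test gave p = 0.1 for each, the smallest that 3 against 3 libraries allow. At 24 h the libraries of the 2 doses did not overlap for 3 of the 8 genes, against 4155 of all 17895 genes.

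The other 6 genes did not pass at 24 h. Cryab was higher after 20 Gy by 0.86 (95% interval 0.29 to 1.42) and its groups did not overlap, but the adjusted p from limma was 0.08449. Hsf2 and Hspb6, which were called against the control at 24 h, differed between doses by -0.12 (95% interval -0.33 to 0.08) and -0.03 (95% interval -0.42 to 0.36). Hspb8 differed by 0.14 (95% interval -0.01 to 0.29), Hsf1 by -0.13 (95% interval -0.41 to 0.16) and Sqstm1 by less than 0.01, with a 95% interval from -0.13 to 0.13.

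The change from 12 h to 24 h was also set side by side for the doses, as a description without p-values, since it is built from time changes that were known when the genes were selected. It was larger after 20 Gy by 1.75 for Bag3 (95% interval 1.36 to 2.14) and by 2.15 for Hspb1 (95% interval 1.34 to 2.97). Both passed the call, as did 0.553% of all genes. The call for Hspb1 was lost when any of 8 of the 12 libraries was left out, with a difference between 1.92 and 2.26. The call for Bag3 held without any 1 library. For Hsf2 and Hspb6 this difference was 0.02 for each, with 95% intervals of -0.26 to 0.31 and -0.53 to 0.57.

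**Figure D5:**
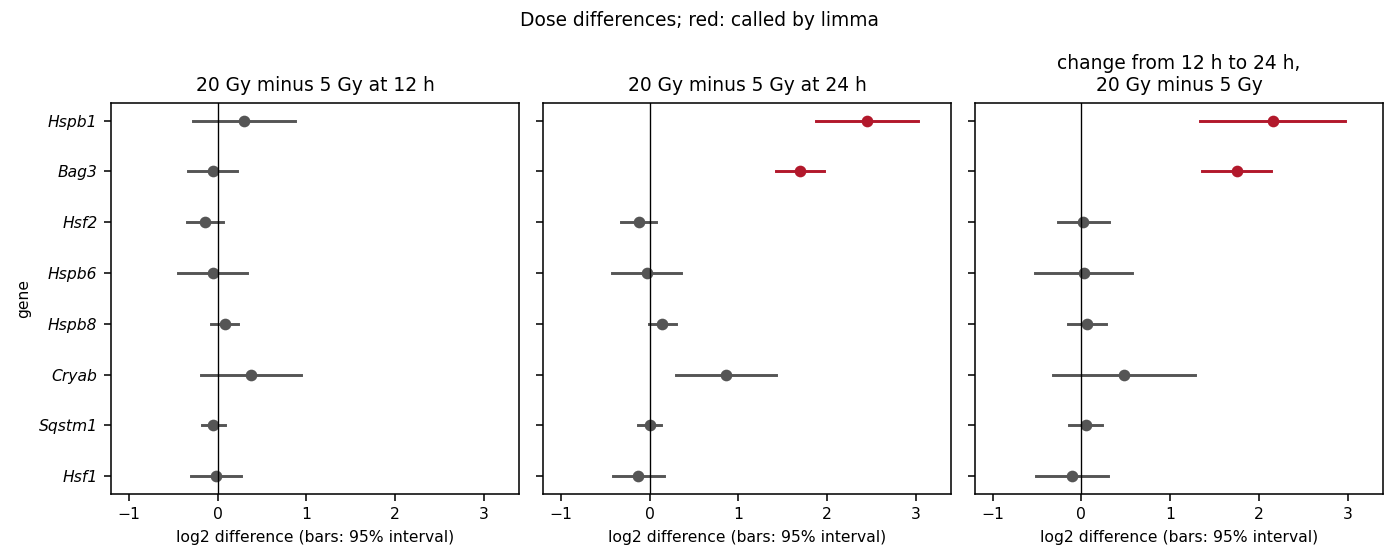
Log2 difference between doses at 12 h, at 24 h, and in the change from 12 h to 24 h (horizontal axis, bars are 95% intervals of the limma fit). Red marks a call, which only Hspb1 and Bag3 have, at 24 h and in the change over time.

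Genes of the same pathways were described from fixed lists by their counts. Of 18 chaperone and ubiquitin genes known as HSF1 targets, 17 were tested. At 24 h after 5 Gy 12 of them were called higher and none lower, with a median log2 change of 1.54. After 20 Gy 16 were called higher and none lower, with a median of 1.91. Of all genes, 20.5% and 17% were called higher after 5 Gy and 20 Gy, with medians of -0.05 and -0.14. The largest rise was that of Hspa1b, an inducible HSP70 gene, from a mean of 10.4 FPKM in control cells to 1354 FPKM after 5 Gy and 4957 FPKM after 20 Gy, a log2 change of 6.87 and 8.76. Between doses at 24 h, 7 of the 17 were called higher after 20 Gy, against 2.42% of all genes called in either direction. When only these groups were fitted, 3 were called higher, and 37 of all 17895 genes were called. None was called higher against the control at 12 h, where 2 were called lower after 5 Gy, against 9.94% of all genes called in either direction.

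Of the 5 other BAG genes, Bag2 and Bag4 were called higher at 24 h after 5 Gy by 0.80 and 0.65, and Bag4 alone after 20 Gy, by 0.60. Of all genes, 20.5% and 17% were called higher at these doses. None of these genes was called at either dose by limma when only the groups compared were fitted, and with own-name rows 0 were higher and 1 lower after 5 Gy. After 20 Gy the call for Bag4 was also lost with quantile normalization, without control replicate 1 and without replicate 1 or 3 of its group, and after 5 Gy the number was 1 without control replicate 1 or replicate 2 of its group. Bag1, Bag5 and Bag6 did not pass, with log2 values of -0.14, -0.33 and 0.11 after 20 Gy. Among the genes of chaperone-assisted selective autophagy, Synpo2, which ties BAG3 to the autophagosome machinery, had the largest called rise at 24 h after 20 Gy, by 0.81. The largest called fall was that of Flnc, an actin cross-linker and known BAG3 client, which went from 122 FPKM in control cells to 16.1 FPKM after 5 Gy and 9.72 FPKM after 20 Gy, a log2 change of -2.86 and -3.53. Hspa8, the constitutive HSP70 gene, was not tested, because its named transcript is listed at 0 in every library and the unnamed transcript that carries the signal of the locus was left out of the sums, the locus also holding a small RNA under another name. That unnamed transcript read 377 to 419.9 FPKM in control libraries, 949.9 to 1167 FPKM at 24 h after 5 Gy and 1680 to 2004 FPKM at 24 h after 20 Gy, values given without a test.

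Among the autophagy receptors and LC3 genes, 1 of 11 was called higher and 1 lower at 24 h after each dose, when 20.5% of all genes were higher and 20.8% lower after 5 Gy and 17% and 23.3% after 20 Gy. After 5 Gy the number lower was 3 without replicate 1 of that group and 2 without control replicate 2, and the number higher was 2 without control replicate 1 or 3. After 20 Gy the number higher was 2 without replicate 3 of that group. With own-name rows 9 were tested and 0 were higher after each dose, with 1 lower after 5 Gy and 2 after 20 Gy. TPM scaling gave 3 higher after 5 Gy and 2 after 20 Gy. Quantile normalization gave 2 higher and 2 lower after 5 Gy, and 2 higher and 1 lower after 20 Gy. At a fold change of at least 2, none was higher, with 1 lower after 5 Gy and 0 after 20 Gy. Map1lc3b, which encodes an LC3 protein that p62 binds, differed by -1.08 and -0.88, and Keap1, an adaptor that p62 sequesters, differed by 0.80 and 0.71. Among 6 tested NRF2 targets, 3 were higher and 1 lower after 5 Gy and 1 higher and 1 lower after 20 Gy, to be read against the same shares of all genes. After 20 Gy these numbers were 3 and 0 without replicate 1 of that group, 1 and 0 without control replicate 3, and 1 and 2 without control replicate 2 or replicate 2 or 3 of that group. After 5 Gy the number lower was 0 without replicate 1 of that group and 2 without its replicate 3 or control replicate 2. Quantile normalization gave 4 higher and 2 lower after 5 Gy, and 2 higher and 1 lower after 20 Gy. TPM scaling gave 2 higher after 20 Gy, and own-name rows gave 4 higher after 5 Gy. With 0.1 as pseudocount, 2 were lower after each dose. At a fold change of at least 2, 0 were higher and 1 was lower after each dose. Hmox1, heme oxygenase, was higher by 0.81 and Nqo1, a quinone reductase, differed by -1.15 at 24 h after 20 Gy. At 12 h, however, Hmox1 was called lower, with log2 changes of -1.18 after 5 Gy and -1.11 after 20 Gy.

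Of 7 other small heat shock protein genes, 2 were high enough to test. Hspb7 was called lower at 24 h after both doses, with log2 changes of -0.84 and -0.91, as were 20.8% and 23.3% of all genes. Its level was low, at 2.48 ± 0.572 FPKM in control cells (SD, n = 3). At 24 h it was 0.977 ± 0.519 FPKM after 5 Gy and 0.875 ± 0.417 FPKM after 20 Gy. Neither call was kept at a fold change of at least 2. Hspb11 did not pass, at 0.19 and 0.25. Of other HSF genes and regulators, 2 of 4 were tested. Hsbp1, whose product binds HSF1 trimers, went from 133 FPKM in control cells to 52.8 FPKM after 5 Gy and 63.5 FPKM after 20 Gy at 24 h, a log2 change of -1.32 and -1.07. Hsf4 did not pass, at -0.0032 and -0.09.

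The genes with the most similar profile over the 15 libraries were found among 8898 named genes with a mean of at least 5 FPKM, by the root mean square difference of log2(FPKM + 1) after each gene's own mean was taken off. Those nearest to Bag3 were Hsp90aa1 at 0.294, LOC103692716 at 0.368 and Hspd1 at 0.390. Those nearest to Hspb1 were Dnajb1 at 0.443, LOC103692716 at 0.468 and Hsp90aa1 at 0.487. Hsf2 was nearest to Stip1 at 0.0840, Ptpn2 at 0.0899 and Atf1 at 0.0998. Hspb6 was nearest to Pop7 at 0.159, LOC100911917 at 0.174 and Med22 at 0.176, and Cryab to Capg at 0.264, Upk1b at 0.277 and Pamr1 at 0.290. Group means of Hspb8, Sqstm1 and Hsf1 spanned less than 1 on the log2 scale, and no likeness was computed for them. These distances are a description over libraries that share depth and culture.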

How the data were processed

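Poly-A selected RNA of 15 libraries was sequenced on an Illumina HiSeq instrument. Per the study's methods, the authors trimmed reads with Trimmomatic, mapped them to Rnor_6.0 with HISAT2 (version 2.0.13 in the submitters' processing notes), assembled transcripts with StringTie, and deposited FPKM per transcript, taken here as they stand in the table, with no further scaling. The authors also counted reads with Kallisto and tested them with edgeR, and those counts were not used here. Because the values are FPKM, no count model was fitted. In each library, 77.2% to 82.1% of low values were whole steps of aligned bases (tolerance 0.06 bases), which gave the depth, and the number of reads behind a value is otherwise not known.

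FPKM were summed per gene, and 4738 transcripts of loci with several names were left out. Genes with a mean of at least 0.5 FPKM over all libraries were fitted as log2(FPKM + 1) with 1 mean per group in limma 3.58.1 (R 4.3.3, lmFit and eBayes with a variance trend), with Benjamini-Hochberg adjustment over 17895 genes. The fit was tested on simulated data. Calls required 0.05 on the adjusted p and a fold change of 1.5 or more, or the adjusted p alone for the difference in change over time. Tests are two-sided. The genes and lists were chosen with earlier results of these data known, so comparisons with the control, between times and of the change over time are given without p-values. Dose differences of the 8 genes are given with p-values, which are open to the same selection. All 8 genes are named, and of each list the called genes with the largest rise and fall at 24 h after 20 Gy and every gene of lists with at most 5 tested. One item of a list is not reported here, and no count is given for that list. The alternatives tried were 0.1 as pseudocount, a filter at a mean of 1 FPKM or none, TPM scaling, quantile normalization, models of the compared groups alone, no variance trend, a replicate block, only rows with the gene's own name, the highest transcript, a fold change of at least 2, and leaving out each library.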

Additional observations from a re-analysis of the deposited data

Results flagged for a closer look

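Differences between groups that passed the call are listed here as log2 differences, with no explanation. Between doses at 24 h, 20 Gy exceeded 5 Gy by 1.70 for Bag3 and by 2.45 for Hspb1. The change from 12 h to 24 h was larger after 20 Gy by 1.75 for Bag3 and by 2.15 for Hspb1. From 12 h to 24 h after 5 Gy, the differences were 1.63 for Bag3, -0.72 for Cryab, 0.93 for Hsf2, 1.65 for Hspb1 and -1.53 for Hspb6, and the call for Cryab was lost without any of 4 of the 6 libraries. From 12 h to 24 h after 20 Gy, they were 3.38 for Bag3, 0.95 for Hsf2, 3.80 for Hspb1 and -1.51 for Hspb6. The comparisons of times, of doses, and of the change over time between doses were open to the selection of the genes, so they describe these libraries. With 3 libraries per group, no library was tested for standing apart from its group.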

How the results depend on the processing

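Of 1272 single values recomputed under the alternatives, 1235 kept their side of the threshold (69 of them with another sign, neither value being called), 24 lost a call, 11 gained one and 2 turned direction. When only rows with the gene's own name or only the highest transcript was used, Hsf2 turned from -0.16 to 0.69 at 12 h after 5 Gy against the control and the number of genes called there became 1, because its assembled transcript was then left out. With a fold change of at least 2, the number called between 24 h and 12 h after 5 Gy was 3 instead of 5, since Cryab and Hsf2 lie below that limit. The number called for the change over time between doses was 1 instead of 2 when only the groups compared were fitted, when only own-name rows were used and when the highest transcript was used, Hspb1 being lost, and ranged from 1 to 2 when a library was left out. Hspb1 was lost there without replicate 1 or 2 of 5 Gy at 12 h, replicate 1 or 3 of 5 Gy at 24 h, any replicate of 20 Gy at 12 h, or replicate 2 of 20 Gy at 24 h. Hsf2 missed the 1.5-fold limit at 24 h after 20 Gy without control replicate 2 (0.55) or without replicate 1 of its own group (0.58). The fall of Cryab from 12 h to 24 h after 5 Gy was not called without replicate 1 or 2 of either group, nor with the own-name rows or highest transcript (-0.22). Sqstm1 was called lower than the control at 24 h (-0.74 to -0.80) when only named rows or the highest transcript was used, in which case the assembled transcript that was higher is left out. A replicate block left every number of genes called as it was, 4 at 24 h after each dose and 2 between doses at 24 h. Deviations of same-numbered libraries of the 2 doses correlated at 0.0452 to 0.232 at 12 h and 0.0642 to 0.155 at 24 h. For different numbers they correlated at -0.192 to 0.0558 and -0.102 to 0.0219. At 24 h, therefore, every same-numbered value lay above every other value. Other pairs of groups went down to -0.177. Not every pair was over 0.1, and the numbers were not taken as pairing. The replicate block was common to all groups, and pairing of the doses within a time was not tested. Rescaling to TPM moved the median log2 change of all genes at 24 h after 5 Gy from -0.05 to 0.06. Members rested on 49.7 kilobases of aligned sequence or more per library, the lowest being Hspb6.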

Other observations

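Heat shock element arrays were also counted over other genes. Among tested genes outside the 8, 46 had an array of 3 units in their window. Of these, 21.7% (5 Gy) and 26.1% (20 Gy) were called higher at 24 h, against 23.5% and 19.5% of the 8971 tested genes with a window. At 12 h after 5 Gy none of the 46 was called higher by limma, against 4.34% of the genes with a window, and after 20 Gy 2.17% were, against 4.4%. Called lower at 24 h were 10.9% and 17.4% of the 46 after 5 Gy and 20 Gy, against 19.8% and 22.1%. Of 1077 genes with a pair of units, 21.9% and 19.1% were called higher at 24 h after 5 Gy and 20 Gy. These shares are given as values only.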
